A study of Homo sapiens with 16 samples.

Results

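The interaction of sanguinarine with panobinostat was measured as a difference of differences in gene expression. The cells were NCI-H1688, an established line grown from a human small cell lung carcinoma. For each gene, the log2 change from panobinostat alone to sanguinarine with panobinostat was taken, and the log2 change from control to sanguinarine alone was subtracted from it. It drew on 8 of the 16 RNA sequencing libraries of the series, 2 biological duplicates in each of 4 groups, chosen by their treatment labels and not by any measured value. Cells were left untreated, received sanguinarine chloride at 1 µM, received panobinostat at 60 nM, or received both drugs at those doses, and RNA was taken at 24 h. The other 8 libraries entered the same fit and its estimate of the spread. Their cells received cepharanthine, evodiamine, JQ1 at 28 µM, or sanguinarine at 1 µM with JQ1 at 28 µM, also for 24 h. The JQ1 groups are compared further on. The control libraries carry the label untreated, while the design text names DMSO. Control and sanguinarine libraries stood in the first deposited table, and both panobinostat groups in the second, so the change from control to panobinostat and the change of table cannot be told apart. An offset between the tables that is constant on the log2 scale cancels in the interaction.

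Sanguinarine is a benzophenanthridine alkaloid of bloodroot and related plants that reacts with thiols and raises oxidative stress in many cell types. Panobinostat is a hydroxamate that inhibits histone deacetylases broadly, so that acetyl groups build up on histones and other proteins and the activity of many genes shifts. Oxidants and thiol-reactive compounds release the transcription factor NRF2 from KEAP1 and so switch on antioxidant, iron-storage and aldo-keto reductase genes, whereas shortage of amino acids and other stresses act through the factor ATF4. An interaction of 0 means that the log2 change by sanguinarine was equal with and without panobinostat. A positive interaction means that the combination lay above the level that the separate log2 changes add up to, and a negative one that it lay below. A negative value can therefore belong to a gene that both drugs raised.

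Promoter windows of 4 genes are shown because these genes stand for 3 patterns described further on. CYP1A1 rose far beyond the added changes, TXNRD1 fell short of them, and ASNS and CHAC1 did not depart from them beyond their error. The windows are from RefSeq on GRCh38.p14, run 5′ to 3′ on the strand of the gene, from 250 bases before the annotated start to 50 after it, and lie at chr15:74725479-74725778 (minus strand), chr12:104215529-104215828 (plus), chr7:97872359-97872658 (minus) and chr15:40953221-40953520 (plus). Capitals mark the core GCGTG of the element bound by the aryl hydrocarbon receptor in CYP1A1, the core TGACNNNGC of the antioxidant response element in TXNRD1, and the core TGATGNAA of the composite element bound by ATF4 and C/EBP factors in ASNS and CHAC1, each searched on both strands.
CYP1A1: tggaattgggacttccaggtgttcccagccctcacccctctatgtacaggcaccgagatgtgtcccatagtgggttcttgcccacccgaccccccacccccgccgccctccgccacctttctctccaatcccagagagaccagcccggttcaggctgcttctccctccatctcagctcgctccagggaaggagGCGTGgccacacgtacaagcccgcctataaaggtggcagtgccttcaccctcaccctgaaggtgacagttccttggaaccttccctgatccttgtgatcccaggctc
TXNRD1: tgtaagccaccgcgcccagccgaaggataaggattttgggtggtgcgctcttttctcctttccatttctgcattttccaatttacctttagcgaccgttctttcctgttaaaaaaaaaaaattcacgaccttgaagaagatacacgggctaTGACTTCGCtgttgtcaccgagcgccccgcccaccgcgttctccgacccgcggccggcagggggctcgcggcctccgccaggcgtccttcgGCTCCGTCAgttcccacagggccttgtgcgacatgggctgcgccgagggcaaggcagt
ASNS: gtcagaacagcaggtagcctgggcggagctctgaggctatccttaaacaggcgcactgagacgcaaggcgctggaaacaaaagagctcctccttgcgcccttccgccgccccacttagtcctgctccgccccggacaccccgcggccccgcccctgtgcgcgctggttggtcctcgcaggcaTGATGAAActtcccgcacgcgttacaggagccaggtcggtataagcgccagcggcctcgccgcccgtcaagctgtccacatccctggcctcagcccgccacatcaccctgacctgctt
CHAC1: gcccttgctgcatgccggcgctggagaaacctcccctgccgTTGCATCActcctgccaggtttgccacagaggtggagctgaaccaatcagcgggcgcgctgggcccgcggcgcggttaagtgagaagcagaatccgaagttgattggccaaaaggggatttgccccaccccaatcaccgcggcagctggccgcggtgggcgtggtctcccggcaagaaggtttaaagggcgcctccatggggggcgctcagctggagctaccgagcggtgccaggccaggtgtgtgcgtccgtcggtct
Over the 27305 promoter windows of the RefSeq table, the receptor core occurred in 36.3%, the antioxidant core in 13.6% and the ATF4 core in 3.67%. Of the listed NRF2 target genes, 17 of 25 had a window and 4 of those held the antioxidant core. Of the listed ATF4 targets, 21 of 25 had a window and 6 of those held the ATF4 core, and of the listed aryl hydrocarbon receptor genes 6 of 8 had a window and 5 of those held the receptor core. The receptor core also lay in 47.9% of the windows of the 13697 tested genes that had one. AKR1C1, AKR1C2, AKR1C3, NQO1 and FTL had windows with 0 antioxidant cores, so TXNRD1 does not stand for the NRF2 targets in this respect. The match began 57 bases before the start in CYP1A1, and 99 and 8 bases before it in TXNRD1, the latter on the other strand. In ASNS it began 68 bases before the start, and in CHAC1 209, also on the other strand. A match describes the letters and is not a binding site.

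Library totals ran from 39996881 to 54301377 counted reads, and levels are given as CPM, counts divided by a TMM-scaled library total. For a gene with no read, 3 counts set the upper limit, 0.0552 to 0.075 CPM by library, for counting error only. HMOX1 served to check the sanguinarine labels. HMOX1, the inducible heme oxygenase, was at 1.54 and 1.83 CPM in the control libraries and at 8.5 and 8.28 with panobinostat, but at 226 and 189 with sanguinarine and at 175 and 186 with both drugs. The titles of the panobinostat libraries begin with S-, and those of the combination do not. HMOX1 went with the treatment labels. H1F0 and CDKN1A, known to rise with inhibitors of histone deacetylases, were at 333 and 351 and at 350 and 339 CPM after panobinostat, against 115 and 114 and 264 and 270 CPM in control cells of the other table. Epithelial EPCAM, KRT8, KRT18 and CDH1 were expressed in all 8 libraries, with EPCAM at 81.7 to 195 CPM and KRT8 at 1990 to 2900 CPM. Of the neuroendocrine markers, INSM1 and NEUROD1 had 0 counts in all 8 libraries, and CHGA stayed under 1 CPM. SYP and NCAM1 were under 1 CPM in the first table and between 16.7 and 87.2 CPM in the second. Among 17 markers of blood, endothelial, stromal, airway and red cells, 11 were tested, and CDH5 and CD68 had a higher interaction. Their summed level was 44.9 to 57.5 CPM in the first table, 74.8 and 89 CPM with panobinostat and 106 and 148 CPM in the combination. Defining PTPRC of blood cells had at most 2 counts in any of the 8 libraries. Duplicates of the combination differed from each other more than those of the other groups did, with an SD of 0.38 for their log2 difference over genes against 0.207 to 0.251, and 168 genes differed over 2-fold between them.

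In an edgeR quasi-likelihood fit of all 16 libraries, 3686 of 22263 genes (16.6%) had an interaction at an adjusted p under 0.05. It was higher for 1760 (7.91%) and lower for 1926 (8.65%), and it passed 2-fold for 515 and 770 of these. The median over all tested genes was -0.016 on the log2 scale. For sanguinarine against control 4895 genes were called (22.0%), 2603 higher (11.7%) and 2292 lower (10.3%), and for the combination against panobinostat 5105 (22.9%), 2561 higher (11.5%) and 2544 lower (11.4%). With library totals in place of TMM the share of higher calls went from 53.2% to 75.7% in the former and from 50.2% to 72.1% in the latter, as the median of all genes shifted to 0.15 and 0.175, whereas for the interaction it was 46.1% against 47.7%. Medians over lists in these single terms move with that shift. The number of interaction calls depended on single libraries. It fell when any control, sanguinarine or panobinostat library was left out, and rose when either combination library was. In such a fit 1 group holds 1 library, which adds nothing to the estimate of the spread. In every one of the 8 fits that left out a library, 1576 genes were called with the same sign, 680 higher and 896 lower. With 2 libraries a group, the p-values measure the spread between these duplicates, pooled over the series. The combination duplicates enter every interaction and differed more than the others (SD 0.38 against 0.207 to 0.251). The pooled spread can therefore understate theirs, and the SE and p-values can be too small. With only the 8 libraries of the interaction, 2187 genes were called. In bulk RNA, a change in the share of cells with a transcript and a change per cell cannot be told apart.

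Genes that changed over 2-fold with sanguinarine alone were looked up in the combination against panobinostat. Of all tested genes 22.9% were called there, so not passing is the common case and is not read as a lost response. Of 1134 genes that rose over 2-fold with sanguinarine alone, 318 also rose in the combination against panobinostat, 36 fell and 780 did not pass. Over all tested genes, 11.5% rose and 11.4% fell in the combination against panobinostat. Their median log2 change was 1.75 alone, the value that chose them, and 0.48 on panobinostat. Of 260 genes that fell over 2-fold alone, 41 also fell on panobinostat, 22 rose and 197 did not pass, with medians of -1.49 and 0.02. In the reverse choice, of 773 genes that rose over 2-fold in the combination against panobinostat, 230 rose with sanguinarine alone and 21 fell. With sanguinarine alone, 11.7% of all tested genes rose and 10.3% fell. Genes chosen for a large change in one term tend on average to be less extreme in the other. How much of the difference between the medians this makes was not tested. Across all 22263 genes, the log2 changes without and with panobinostat correlated at a Pearson r of 0.19 and a Spearman rho of 0.18, given as a description because genes share libraries.

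The called genes fell into a few forms. Of the 1760 with a higher interaction, 684 fell with sanguinarine alone and did not pass on panobinostat, 660 did not pass alone and rose on panobinostat, and 199 fell alone and rose on panobinostat. Of the 1926 with a lower interaction, 764 rose alone and did not pass on panobinostat, 710 did not pass alone and fell on panobinostat, and 220 rose alone and fell on panobinostat. A further 81 rose in both terms, by a median of 1.94 alone and 0.75 on panobinostat. Of 684 genes called higher in both terms, 585 had no interaction call, and of 612 called lower in both, 550 had none. Only 16.6% of all tested genes had an interaction call, so most genes had none in any case. Choosing genes by calls of the same sign favours the absence of an interaction call, and a missing call does not show an equal response.

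**Figure D1:**
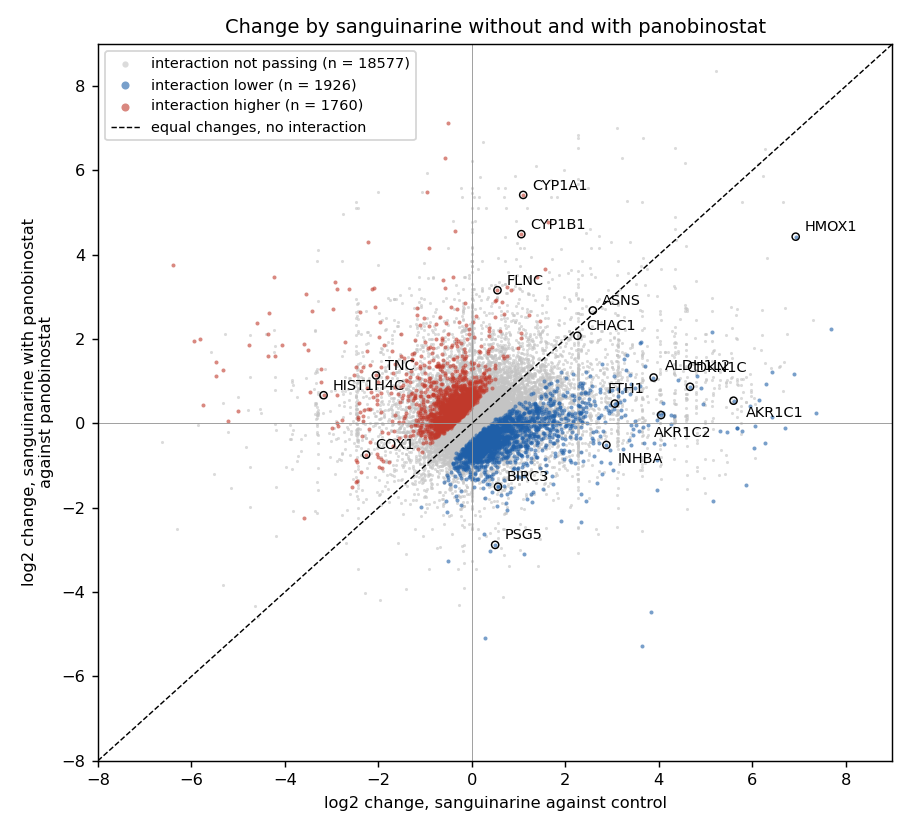
Log2 change by sanguinarine against control (horizontal axis) and by sanguinarine with panobinostat against panobinostat (vertical axis) for the 22263 tested genes. Red and blue points are the 1760 genes with a higher and the 1926 with a lower interaction at an adjusted p under 0.05, grey points did not pass, and the dashed line marks equal changes. CYP1A1 and CYP1B1 lie far above the line, AKR1C1 and FTH1 far below it near a change of 0 on panobinostat, and ASNS on it.

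The largest negative interaction among genes named by size belonged to the aldo-keto reductases of the AKR1C family, cytosolic enzymes that reduce steroids, prostaglandins and lipid aldehydes and are classical NRF2 targets in human cells. AKR1C1 was at 2.39 and 2.09 CPM in control cells, 121 and 96.5 after sanguinarine, 5.94 and 7.34 after panobinostat and 7.85 and 11.4 after both. The sanguinarine libraries stood far above the other 6, and the combination libraries stood just above those of panobinostat. The log2 change was 5.60 alone and 0.54 on panobinostat, an interaction of -5.07 ± 0.26 (SE; edgeR adjusted p = 2.43e-10). Had the log2 changes added, the combination would have been at 319 CPM. AKR1C2 was at 2.77 and 2.63, 47.1 and 42, 12 and 12.6, and 12.3 and 16 CPM in the same order of groups, with an interaction of -3.85 ± 0.24 (edgeR adjusted p = 4.5e-09). AKR1C3 went from 1.72 and 1.69 CPM to 19.2 and 13.9 with sanguinarine, and stood at 19.7 and 22.2 with panobinostat and at 18.5 and 29.7 with both drugs. The combination libraries of AKR1C3 overlapped the range of each drug alone, and its interaction was -3.08 ± 0.31. The AKR1C genes are near-identical copies, and AKR1C2 overlaps another gene, so the split of reads between them is uncertain. AKR1B10, a related retinal and aldehyde reductase, had an interaction of -3.70 ± 1.02 that rests on 2 and 0 counts in the control libraries, so its size depends on the prior count, and it lost its call without control library 2 or sanguinarine library 2.

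Across the 25 listed NRF2 targets, 13 had a lower interaction, 0 a higher one and 12 did not pass, and the median was -0.81 against -0.016 over all genes. With sanguinarine alone 22 of the 25 rose and 0 fell, at a median of 1.17. On panobinostat 9 rose and 5 fell, at a median of 0.25. The shares of all tested genes that rose and fell were 11.7% and 10.3% alone, and 11.5% and 11.4% on panobinostat. They stand beside the counts of the lists below as well. The list was written with earlier results of these data known. The change by sanguinarine alone is subtracted in the interaction. A list chosen for its rise there can lean towards lower interactions, and one chosen for its fall towards higher ones. This bears on the lists below too, and its size was not tested. In the fits of every alternative, 12 to 18 members were lower and 0 higher. HMOX1, which opens the heme ring, shows that induction was kept while the interaction was negative. The combination libraries reached about the level of sanguinarine alone, from a panobinostat level that was already above the control, and both terms passed (6.93 alone and 4.43 on panobinostat, interaction -2.50 ± 0.17, edgeR adjusted p = 1.2e-08). FTH1, the ferritin heavy chain that stores iron, was at 1310 and 1310 CPM in control cells, 11200 and 10700 after sanguinarine, 8600 and 9220 after panobinostat and 13000 and 11600 after both. All 6 treated libraries stood well above the control, and the combination was modestly above either drug. Its interaction was -2.59 ± 0.13 (edgeR adjusted p = 2.24e-10). FTH1 overlaps BEST1 and has many pseudogenes, so reads may be shared. Per length, FTH1 was the more abundant transcript throughout, at 11800 and 11200 RPKM in the combination, against 123 and 138 for HMOX1 and 6.34 and 9.8 for AKR1C1.

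Further members named here were chosen after their values were seen. TXNRD1, thioredoxin reductase, whose window is printed above, was at 336 and 340 CPM in control cells, 844 and 742 after sanguinarine, 1080 and 1090 after panobinostat and 825 and 1190 after both. It rose with sanguinarine alone (log2 1.23) and did not pass on panobinostat (-0.11), and its interaction was -1.34 ± 0.17 (edgeR adjusted p = 2.77e-05). The combination libraries lay on either side of the panobinostat pair. TXN (thioredoxin), GSR (glutathione reductase), TALDO1 (transaldolase of the pentose phosphate pathway) and SLC48A1 (a heme transporter) rose with sanguinarine alone by 0.33 to 0.59 and fell on panobinostat by 0.43 to 0.53, all with a lower interaction. ABCC3, an efflux pump for conjugates, rose by 2.20 alone and had a log2 change of 0.25 on panobinostat, which did not pass (interaction -1.95 ± 0.19). The ferritin light chain FTL rose in both terms, by 1.90 and 1.21, with an interaction of -0.69 ± 0.16.

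Among the 12 NRF2 targets that did not pass, NQO1, GCLC and TKT had interactions of 0.01, -0.01 and -0.03, and others lay just past the threshold. NQO1, a quinone reductase, was at 163 and 174 CPM in control cells, 388 and 370 after sanguinarine, 194 and 218 after panobinostat and 435 and 494 after both. Both pairs with sanguinarine stood above both pairs without it. The log2 change was 1.17 in each term, and the interaction of 0.01 had a 95% interval of -0.28 to 0.29. The interaction of GCLM, a subunit of the rate-limiting enzyme of glutathione synthesis, was -0.67 ± 0.23 and did not pass (edgeR adjusted p = 0.0547). The combination libraries were far apart, at 117 and 207 CPM. SLC7A11, the cystine importer, had an interaction of -0.81 ± 0.28 (edgeR adjusted p = 0.0511) with combination libraries at 65.4 and 139 CPM.

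**Figure D2:**
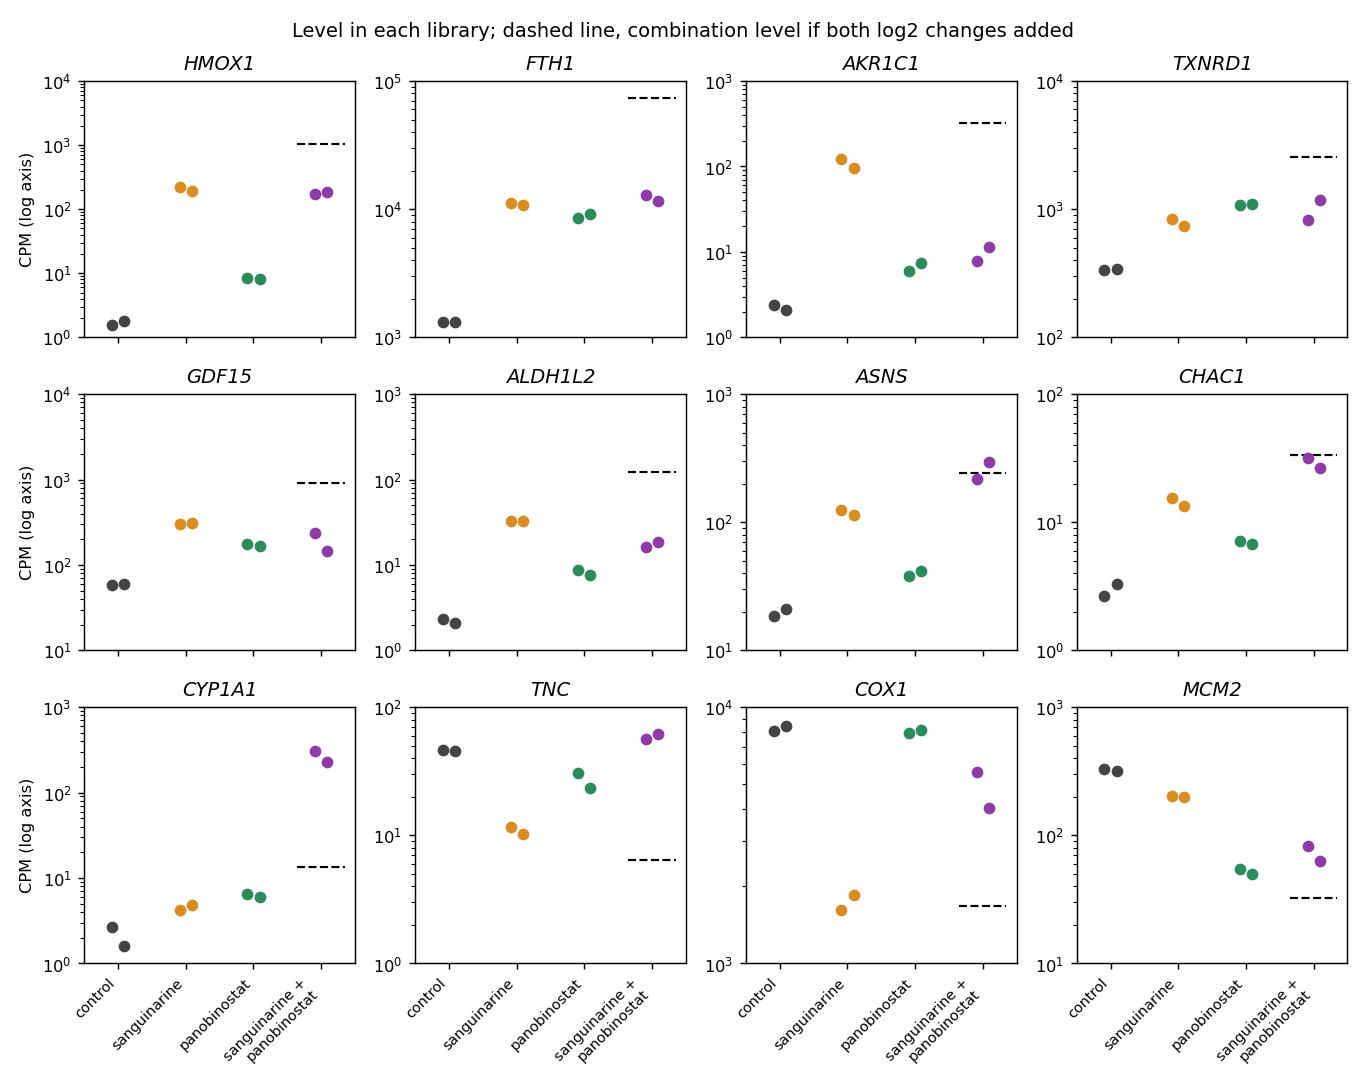
CPM on a log axis in each of the 8 libraries for 12 genes, 2 points per group, with a dashed line at the combination level that the separate log2 changes add up to. HMOX1, FTH1, AKR1C1, TXNRD1, GDF15 and ALDH1L2 lie below the line in both combination libraries, CYP1A1, TNC, COX1 and MCM2 lie above it in both, and the ASNS libraries lie on either side of it.

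Listed ATF4 targets rose both with and without panobinostat. Of 24 listed members that were tested, 17 rose and 2 fell with sanguinarine alone, and 19 rose and 1 fell on panobinostat, with medians of 0.97 and 0.75. For the interaction, 4 were higher, 7 lower and 13 did not pass, with a median of -0.16. The 7 became 4 without panobinostat library 2, and the 4 became 7 without combination library 2. ASNS, asparagine synthetase, was at 18.4 and 20.9 CPM in control cells, 125 and 113 after sanguinarine, 38 and 41.9 after panobinostat and 217 and 294 after both. Its log2 change was 2.59 alone and 2.68 on panobinostat, and the interaction of 0.08 had a 95% interval of -0.29 to 0.45. CHAC1, which degrades glutathione, changed by 2.26 alone and 2.08 on panobinostat, with an interval of -0.62 to 0.26 for the interaction. STC2 and PSAT1, a secreted glycoprotein and an enzyme of serine synthesis, also rose in both terms, with interactions of -0.19 and -0.15 that did not pass.

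Some members departed from addition in either direction. DDIT3, the pro-apoptotic factor CHOP, was at 6.43 and 5.31 CPM in control cells, 12.6 and 11.8 after sanguinarine, 5.85 and 7.07 after panobinostat and 28.1 and 24.6 after both. The combination libraries were above all 6 others, and the interaction was 0.97 ± 0.20 (edgeR adjusted p = 0.00231). ATF4 itself did not pass with sanguinarine alone (log2 -0.03) and rose by 0.94 on panobinostat. ALDH1L2, the mitochondrial formyltetrahydrofolate dehydrogenase, went from 2.34 and 2.11 CPM to 32.9 and 32.8 with sanguinarine, but was at 8.83 and 7.63 with panobinostat and 16.2 and 18.8 with both. That gave an interaction of -2.80 ± 0.24 (edgeR adjusted p = 3.67e-07), and the gene overlaps another in position. CEBPB, a partner of ATF4 that overlaps an antisense gene, rose by 1.40 alone and fell by 0.79 on panobinostat, though its combination libraries were at 176 and 99.7 CPM. NUPR1, a stress-induced chromatin protein, rose in both terms (2.78 and 1.41), and its call for the interaction of -1.36 ± 0.36 was lost with limma-voom or without panobinostat library 2. SQSTM1, the autophagy receptor p62, rose by 1.64 alone and by 1.91 on panobinostat, with an interval of -0.01 to 0.56 for the interaction. It passed as higher when combination library 2 was left out.

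Listed p53 targets, which arrest or kill damaged cells, had more lower than higher interactions. With sanguinarine alone 12 of 24 rose and 1, PLK2, fell. On panobinostat 7 rose and 4 fell, and for the interaction 11 were lower and 2 higher, with a median of -0.45. Without control library 1 the 11 became 7. GDF15, a stress cytokine whose gene holds a microRNA, was at 58.4 and 59.9 CPM in control cells, 304 and 313 after sanguinarine, 176 and 169 after panobinostat and 239 and 145 after both, so the combination libraries straddled the panobinostat pair. Its interaction was -2.23 ± 0.22 (edgeR adjusted p = 2.13e-06). TP53INP1, an autophagy and apoptosis factor, rose by 1.87 alone and had a log2 change of 0.20 on panobinostat, which did not pass. CDKN1A, the cyclin-dependent kinase inhibitor p21, was at 264 and 270, 618 and 607, 350 and 339, and 456 and 371 CPM in the order control, sanguinarine, panobinostat and both, with an interaction of -0.93 ± 0.14. MDM2, which degrades p53, rose by 0.65 alone and had an interaction of -0.56 ± 0.14. AEN and DDB2, of nuclease and DNA repair function, were the 2 members with a higher interaction.

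Transcripts of the mitochondrial genome showed the converse form, a strong fall with sanguinarine that was smaller on panobinostat. All 13 mRNAs fell with sanguinarine alone, at a median of -2.01, and 12 of 13 fell on panobinostat, at a median of -0.91. The interaction was higher for 12 and did not pass for ND6, and its median was 1.08. Their summed share of all counted reads was 3.78% and 3.85% in control cells, 0.901% and 0.984% after sanguinarine, 4.46% and 4.51% after panobinostat and 2.9% and 2.04% after both. COX1, a core subunit of cytochrome c oxidase, was at 8060 and 8450 CPM in control cells, 1610 and 1850 after sanguinarine, 7940 and 8120 after panobinostat and 5580 and 4040 after both. The combination libraries lay between the sanguinarine pair and the other 4, and the interaction was 1.52 ± 0.18 (edgeR adjusted p = 1.43e-05). COX2 had an interaction of 1.55 ± 0.23 and ATP6 one of 1.09 ± 0.20. ND4L had one of 2.05 ± 0.18, but it overlaps ND4, and their reads cannot be parted here. These mRNAs share polycistronic precursors, so they are not 13 separate observations. In each of the 13 the second combination library was below the first, and across the alternatives 11 to 13 were higher and 0 lower.

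Genes of DNA replication and of ribosome production also had mostly higher interactions, but in another form. Unlike the mitochondrial mRNAs, they stood far below control in the panobinostat groups of the other table and showed little further change. The listed G1/S genes summed to 4040 and 4030 CPM in control cells and 2490 and 2470 after sanguinarine. They summed to 988 and 1010 CPM after panobinostat and 979 and 967 after both. Of 31 listed G1/S genes, 28 fell with sanguinarine alone and 0 rose, at a median of -0.69, while on panobinostat 4 rose and 3 fell, at a median of -0.03. The counts on panobinostat are near the shares over all tested genes, 11.5% and 11.4%. The interaction was higher for 20 and lower for 0, with a median of 0.67. MCM2, part of the replicative helicase, was at 330 and 317 CPM in control cells, 203 and 199 after sanguinarine, 54.6 and 49.5 after panobinostat and 81.8 and 63.5 after both. The panobinostat pair was the lowest, and the combination pair lay above it and below the sanguinarine pair. The log2 change was -0.69 alone and 0.48 on panobinostat, an interaction of 1.17 ± 0.15 (edgeR adjusted p = 3.83e-05). E2F1, a transcription factor of S-phase genes, fell by 0.70 alone and rose by 0.70 on panobinostat. CDC45, a helicase cofactor, fell by 1.11 alone and had a log2 change of 0.26 on panobinostat that did not pass. PCNA, TYMS and RRM2, for the sliding clamp and nucleotide supply, had interactions of 0.95, 0.79 and 0.85, all called. RRM1, the other subunit of ribonucleotide reductase, fell in both terms, by 0.64 and 0.57, and its interaction of 0.07 had an interval of -0.23 to 0.37.

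Genes of later cell cycle stages were listed apart. Of 30 listed G2/M genes, 28 fell with sanguinarine alone and 23 fell on panobinostat, with medians of -0.67 and -0.43, and 7 had a higher and 1 a lower interaction. The 7 became 4 without control library 1 and 14 without combination library 1. Among the 7 were MKI67 (1.41 ± 0.17), the proliferation marker Ki-67, KIF20A (1.19 ± 0.14), a mitotic kinesin that overlaps CDC23, and AURKB (1.05 ± 0.14), a mitotic kinase. Whether the G1/S and G2/M lists differ was not tested.

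Of 31 listed genes of ribosome biogenesis and MYC, 26 fell with sanguinarine alone and 0 rose, at a median of -0.53, and on panobinostat 8 rose and 1 fell, at a median of 0.12. The interaction was higher for 21 and lower for 1, MYC itself, with a median of 0.68. NCL, nucleolin, was at 1800 and 1780 CPM in control cells, 1090 and 1090 after sanguinarine, 225 and 229 after panobinostat and 240 and 264 after both. The 4 panobinostat libraries were close together and well below the others. Its interaction was 0.87 ± 0.12 (edgeR adjusted p = 4.76e-05). NOP56, a box C/D snoRNP protein whose gene hosts snoRNAs and overlaps IDH3B, had the largest positive interaction of the list, 1.29 ± 0.14. NOLC1, a nucleolar phosphoprotein, followed it with BOP1 at 1.11 ± 0.11 and 1.19 ± 0.16. MYC was at 334 and 322 CPM in control cells, 309 and 306 after sanguinarine, 95.9 and 92.4 after panobinostat and 50 and 49.2 after both. It did not pass with sanguinarine alone (log2 -0.09) and fell by 0.92 on panobinostat, an interaction of -0.83 ± 0.12 (edgeR adjusted p = 0.000125).

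**Figure D3:**
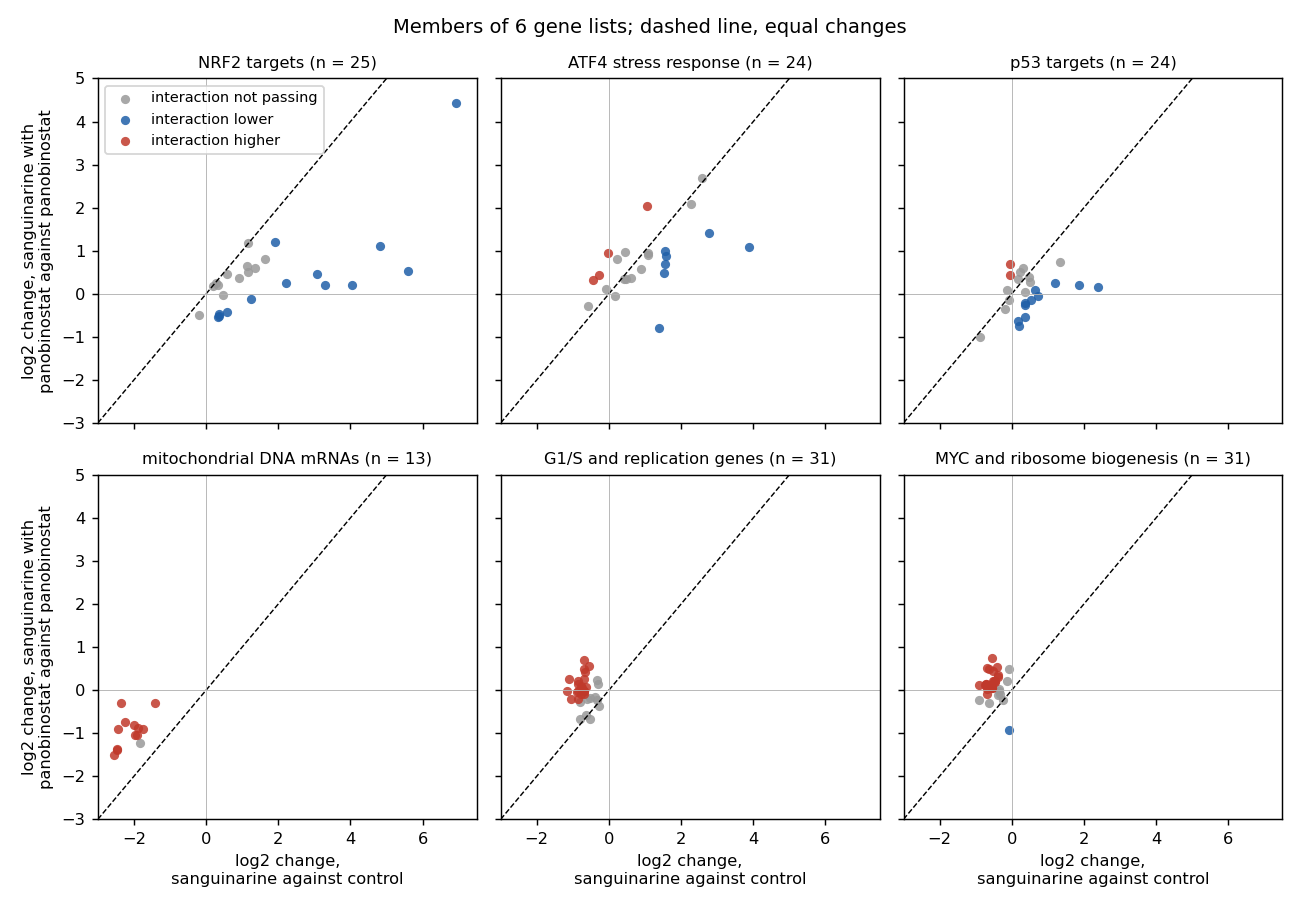
Log2 change by sanguinarine against control (horizontal) and in the combination against panobinostat (vertical) for the tested members of 6 lists, with red, blue and grey for a higher, lower or absent interaction call and a dashed line for equal changes. NRF2 targets spread to the right and lie mostly below the line, with HMOX1 at the top right, ATF4 targets lie on either side of it, and the mitochondrial, G1/S and ribosome biogenesis genes sit to the left of 0 and mostly above the line, with MYC below it.

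The largest positive interaction among genes named by size was that of CYP1A1, the cytochrome P450 that oxidises aromatic hydrocarbons and is the textbook target of the aryl hydrocarbon receptor. It was at 2.67 and 1.59 CPM in control cells, 4.18 and 4.8 after sanguinarine, 6.56 and 5.94 after panobinostat and 306 and 228 after both. The combination libraries exceeded all 6 others by more than an order of magnitude. The log2 change was 1.10 alone and 5.42 on panobinostat, an interaction of 4.32 ± 0.36 (edgeR adjusted p = 1.92e-07), against 13.6 CPM for added changes. CYP1B1, the related enzyme that hydroxylates oestradiol, was at 2.27 and 3.22, 5.04 and 6.47, 1.66 and 1.55, and 39.2 and 33 CPM in the order control, sanguinarine, panobinostat and both. Its interaction was 3.43 ± 0.28 (edgeR adjusted p = 1.77e-07). Of 7 listed genes tested, 2 were higher and 2 lower. AHRR, the repressor of the receptor, rose by 0.56 alone and 0.69 on panobinostat, with an interaction of 0.13 ± 0.17 that did not pass. TIPARP, a mono-ADP-ribosyltransferase, had one of 0.33 ± 0.14 that did not pass either. ALDH3A1, an aldehyde dehydrogenase, had a lower interaction of -1.46 ± 0.26, and the receptor gene AHR one of -0.39 ± 0.13.

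The other genes with large positive interactions came from several functions. TNC, the matrix protein tenascin-C, was at 46 and 45.2 CPM in control cells, 11.6 and 10.3 after sanguinarine, 30.6 and 23.3 after panobinostat and 56.7 and 62.2 after both. It fell by 2.05 alone and rose by 1.14 on panobinostat, so that the combination pair was the highest of all (interaction 3.19 ± 0.21, edgeR adjusted p = 7.69e-09). FLNC, an actin-binding filamin, was at 59.6 and 56.8, 85.3 and 85, 46.5 and 32.1, and 417 and 285 CPM, with an interaction of 2.61 ± 0.35, and overlaps another gene. BCL2A1, an anti-apoptotic BCL2 relative, did not pass with sanguinarine alone and rose on panobinostat, from 1.56 and 1.78 to 7.46 and 12.1 CPM (interaction 2.45 ± 0.43). IL1RL1, the receptor for interleukin 33, and KRTAP2-3, a hair keratin-associated protein of a multigene family, had interactions of 2.48 ± 0.43 and 2.37 ± 0.45. The histone genes HIST1H4C and HIST1H1E, at 3.84 ± 0.41 and 3.66 ± 0.54, fell with sanguinarine alone to 0.373 to 0.569 CPM, and their mRNAs are read poorly in poly(A) RNA. The control duplicates of HIST1H1E were far apart, at 4.65 and 1.75 RPKM, against 0.481 and 0.724 RPKM after sanguinarine. The size of its interaction is therefore uncertain. CDHR5 (2.68 ± 0.56), CDK5R1 (2.34 ± 0.28) and FGF1 (2.39 ± 0.63) completed the 12. FGF1 lost its call without control library 1, sanguinarine library 1 or panobinostat library 2.

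By the naming rule the 12 largest negative interactions held, beside AKR1C1, AKR1C2 and AKR1C3, several genes that rose with sanguinarine alone and did not rise on panobinostat. INHBA, the activin A subunit, was at 7.8 and 7.34 CPM in control cells, 56.3 and 55 after sanguinarine, 45.1 and 47.2 after panobinostat and 31.5 and 33.5 after both. The combination pair was below either drug alone, and the log2 change of 2.88 alone became a fall of 0.51 on panobinostat (interaction -3.39 ± 0.19, edgeR adjusted p = 1.56e-09). INHBA overlaps its antisense gene. SERPINB4, a protease inhibitor with a close copy, was at 0.473 and 0.597, 5.95 and 6.32, 5.77 and 6.26, and 5.74 and 6.88 CPM, so that the 6 treated libraries lay together. KIAA0319 (-3.44 ± 0.26), which overlaps a pseudogene, and CRIP2 (-3.59 ± 0.35) also rose alone and did not pass on panobinostat. CDKN1C, the cyclin-dependent kinase inhibitor p57, rose in both terms, from 3 and 5 counts in the control to 11.7 and 7.72 CPM with both drugs, and its interaction of -3.79 ± 0.65 rested on those few counts and lost its call with limma-voom. ADM2, a peptide hormone of the adrenomedullin family, also rose in both terms from 6 and 4 counts in the control (-2.98 ± 0.63). PSG5, one of the pregnancy-specific glycoproteins with near-identical copies, and C8orf4 fell on panobinostat by 2.88 and 1.63. PADI3, a peptidylarginine deiminase, was at 0.274 and 0.935 CPM in control cells, 3.02 and 3.36 after sanguinarine, 98.4 and 93.5 after panobinostat and 79 and 41.5 after both.

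Some regulators of cell death and inflammation had large interactions, in either direction. Of 16 BCL2 family members, 1 was higher and 4 were lower, against 7.91% and 8.65% of all tested genes. The few higher calls in the lists below are not read as a trait of those lists. The BH3-only genes BMF and PMAIP1, whose proteins neutralise anti-apoptotic relatives, had interactions of -2.57 ± 0.40 and -1.53 ± 0.21. PMAIP1 was at 24.3 and 23.6 CPM in control cells, 68.1 and 57 after sanguinarine, 76.1 and 94.2 after panobinostat and 64.3 and 89.4 after both. The combination libraries overlapped those of each drug alone. Of 22 tested NF-kB targets and cytokines, 3 were higher and 5 lower, which became 3 lower without sanguinarine library 1 and 5 higher without combination library 1. BIRC3, an inhibitor of apoptosis, was at 34.3 and 34.4, 50.1 and 51.2, 686 and 740, and 213 and 292 CPM in the usual order. It rose by 0.56 with sanguinarine alone and fell on panobinostat, an interaction of -2.06 ± 0.17 (edgeR adjusted p = 1.6e-07). IL6, a cytokine gene that overlaps another, rose in both terms (2.44 and 1.22), and IL1B had a higher interaction of 0.88 ± 0.18. Of 24 interferon-stimulated genes, 1 was higher and 7 lower. IFIT1, which binds viral RNA, fell by 0.52 alone and by 2.10 on panobinostat, from 110 and 117 to 23 and 30.2 CPM. Of 22 AP-1 and immediate early genes, 1 was higher and 7 lower. The higher one was FOSL1, at 3.95 and 2.9 CPM with panobinostat and 11.9 and 11.2 with both, while JUNB fell by 1.24 on panobinostat.

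Among 32 lysosome and autophagy genes, 21 rose with sanguinarine alone and 0 fell, and on panobinostat 14 rose and 5 fell. The interaction was lower for 12 and higher for 2, with a median of -0.28. GABARAPL1, an ATG8-family protein of autophagosomes, was at 18.9 and 16.2 CPM in control cells, 40.1 and 38.7 after sanguinarine, 85.7 and 89.2 after panobinostat and 54.5 and 62.6 after both. It rose alone and fell on panobinostat, an interaction of -1.75 ± 0.14 (edgeR adjusted p = 1.6e-07). MAP1LC3B, ULK1 and WIPI1, which build autophagosomes, had lower interactions of -0.60, -0.84 and -0.93. PLIN2, a lipid droplet coat protein, was one of the 2 higher members, at 0.26 to 4.28 CPM in the panobinostat groups, and lost its call without control library 2 or panobinostat library 1.

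The remaining lists gave calls in smaller numbers, and most of these counts moved over 1.5 times without 1 library or another. Over all tested genes 7.91% were higher and 8.65% lower. Of 22 heat shock and chaperone genes, 6 were higher and 4 lower, of 24 hypoxia and glycolysis genes 4 and 5, of 25 cholesterol genes 3 and 3, and of 13 lipogenic genes 5 and 0. Without combination library 2, hypoxia genes gave 10 higher and cholesterol genes 9 higher, and without combination library 1 heat shock genes gave 11 higher. Of 20 unfolded protein response genes, 2 were higher and 3 lower, of 25 histone deacetylase and acetyltransferase genes 5 and 4, of 12 histone genes 2 and 2, and of 26 proteasome subunits 2 and 2. Of 15 tubulins and of 8 metallothionein and zinc genes tested, 1 each was higher and 0 lower, and of 20 junction and mesenchymal genes tested 1 was higher and 4 lower. Of 17 tested neuroendocrine genes 0 were higher and 2 lower, and of 17 tested lineage factors of small cell lung cancer 0 were higher and 3 lower. Among those, UCHL1, a neuronal ubiquitin hydrolase, was at 161 and 164, 278 and 253, 168 and 182, and 185 and 197 CPM, a rise of 0.71 with sanguinarine alone and a log2 change of 0.13 on panobinostat that did not pass.

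**Figure D4:**
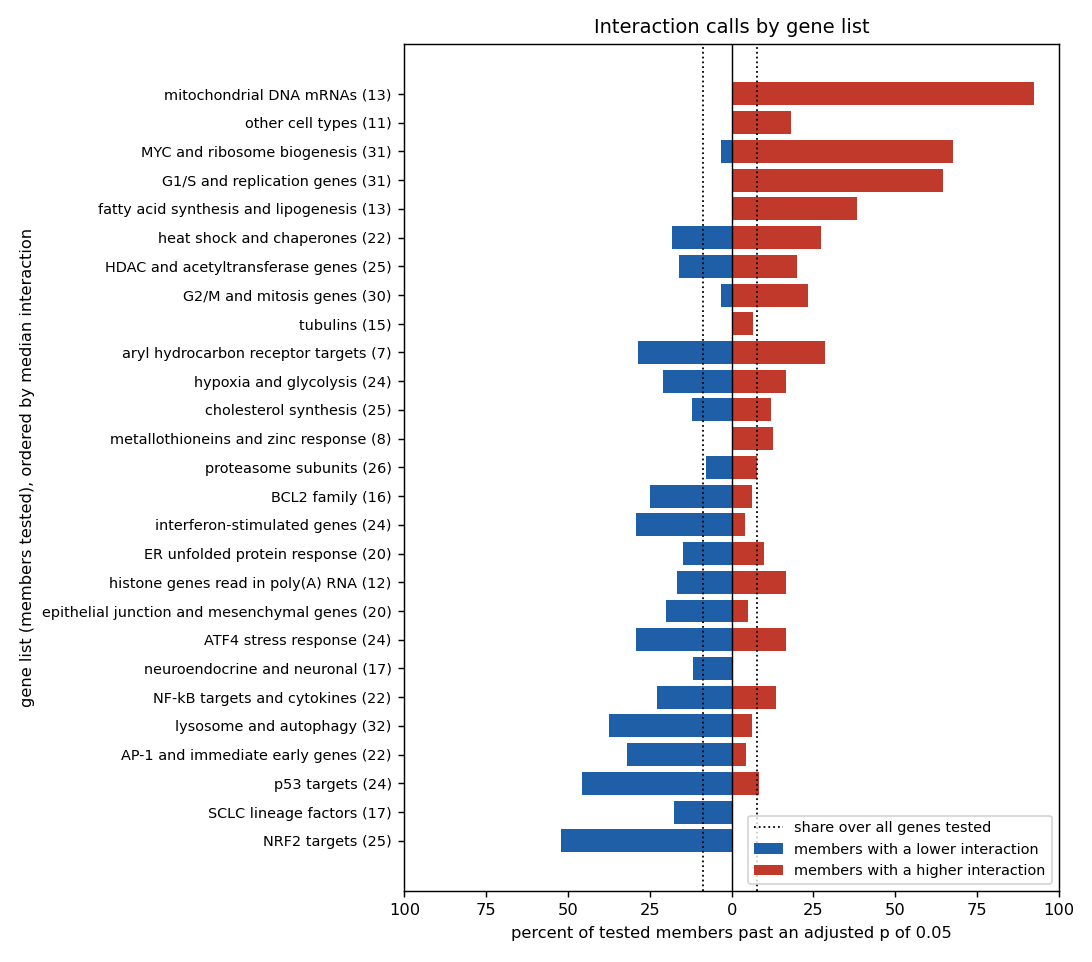
Percent of the tested members of each of 27 lists with a higher (right, red) or lower (left, blue) interaction at an adjusted p under 0.05, ordered by the median interaction, with dotted lines at 7.91% and 8.65%, the shares over all tested genes. NRF2 targets lie at the bottom with 13 of 25 lower, and mitochondrial DNA mRNAs at the top with 12 of 13 higher.

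Whether the partner drug mattered was tested by setting the change by sanguinarine on panobinostat against its change on JQ1, a BET bromodomain inhibitor given at 28 µM, in 4 groups of the second table. The control and sanguinarine libraries drop out of this contrast. It called 2501 genes (11.2%), 975 higher on panobinostat (4.38%) and 1526 lower (6.85%). Of the 25 NRF2 targets, 18 were lower on panobinostat than on JQ1 and 2 were higher, with a median difference of -1.07. ATF4 targets went the same way, with 14 of 24 lower, 1 higher and a median of -0.49, as did 11 of 22 NF-kB targets, with 0 higher. Of 24 p53 targets 8 were higher and 3 lower, and of 25 cholesterol genes 10 were higher and 0 lower. AKR1C1 rose by 3.74 on JQ1, from 3.67 and 3.77 to 48.6 and 51.1 CPM, against the rise of 0.54 on panobinostat. HMOX1 rose by 6.06 on JQ1 and by 4.43 on panobinostat, a difference of -1.64 (edgeR adjusted p = 4.77e-07). CYP1A1 rose by 2.61 on JQ1, to 22.7 and 37.1 CPM, against 5.42 on panobinostat, and the difference of 2.81 passed (edgeR adjusted p = 5.91e-06). The fall of mitochondrial mRNAs was smaller on panobinostat than on JQ1 for 7 of 13 members. TNC rose on both partners, by 1.53 and 1.14, and the difference did not pass. The G1/S and ribosome biogenesis genes gave 4 higher and 1 lower of 31, and 2 higher and 1 lower of 31.

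Overlapping genes were read differently in the tables. A set of 222 genes had 0 counts in the 4 libraries of the first table used here and at least 1 CPM in all 4 of the second, 221 of them overlapping another gene in position, and 0 genes showed the reverse. Such a difference cancels in the interaction only where it multiplies a gene's counts by a constant. Overlapping genes made up 56.8% of the tested and 54.0% of the called genes, and of the 9617 tested genes with no overlap 17.6% were called.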

How the data were processed

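Raw counts per gene and RPKM were deposited by the authors in 2 tables of 8 libraries each. The poly(A) RNA libraries were aligned with STAR 2.5.1 to GRCh38, per the submitters' processing notes, which also list DESeq2. The counting tool and its use of strand are not given in the sources used here. RPKM recomputed from the deposited counts differed by at most 2e-13 in relative size. Positions in the tables look like another build than GRCh38, and the design text names a mouse annotation release, so no coordinate of the tables is printed and positions served only to find genes that overlap within them. Symbols stored as dates, 27 in number, were restored, and 0 columns lacked a sample.

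Counts of all 16 libraries were fitted together with 1 coefficient per group in edgeR 4.0.16 under R 4.3.3, after filterByExpr and TMM, with quasi-likelihood F tests, Benjamini-Hochberg adjustment over all tested genes and a threshold of 0.05. The procedure was also run on simulated data with the same spread in every group. In the real data the combination duplicates differed more than the others, so no support is drawn from that run. SE is the absolute log2 value over the square root of F and is unreliable for large folds against few counts. The labels call the duplicates biological, and p-values measure only the spread between them. Reads carry no molecular identifiers and may be PCR copies, so the floor of 3 counts covers counting error only. Promoters are from RefSeq GRCh38.p14. Alternatives used limma 3.58.1 (voom), DESeq2 1.42.0, other scalings and filters, fewer libraries, a replicate block and each library left out.

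The members and the 27 lists were chosen with earlier results of these data known. Genes named by size were protein-coding, called, at a mean of at least 1 CPM in both tables and of 1 sign in all 16 choices of 1 library per group at a pseudocount of 0.5 CPM, the 12 largest in each direction. The 3 called members with the largest absolute interaction per list, and genes that check the labels, were named too. Other list members in the text were chosen after their values were seen.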

Additional observations from a re-analysis of the deposited data

Results flagged for a closer look

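For 16 of the 24 genes named by size, the change by sanguinarine on panobinostat differed from its change on JQ1 in edgeR's quasi-likelihood test of that difference, with Benjamini-Hochberg adjustment over all tested genes. The other 8 did not pass. Over all tested genes 11.2% were called. The genes were named by their interaction with panobinostat, which shares the panobinostat and combination libraries with this contrast, so nothing is read from the count.

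The difference was positive for 3 of them, meaning a higher change on panobinostat. It was 2.81 for CYP1A1 and 2.83 for CYP1B1, both cytochrome P450 genes, and 1.54 for the linker histone gene HIST1H1E. It was negative for 13. Among the aldo-keto reductases it was -3.21 for AKR1C1, -1.97 for AKR1C2 and -1.53 for AKR1C3, whose reads may be shared. SERPINB4, the protease inhibitor, had a difference of -3.95. The cell cycle inhibitor CDKN1C had one of -3.24, KIAA0319 -2.52, PSG5 -2.35, the peptide hormone ADM2 -2.18, C8orf4 -1.88 and CRIP2 -1.31. BCL2A1, IL1RL1 and KRTAP2-3 had a positive interaction with panobinostat, but their differences from JQ1 were -3.0, -1.61 and -2.31. Their change by sanguinarine was larger on JQ1 than on panobinostat.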

How the results depend on the processing

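Without 1 library at a time, the interaction gave 869 to 2850 genes higher and 1176 to 3413 lower. The same fits gave 1403 to 3553 higher and 1058 to 3377 lower for sanguinarine against control, 793 to 3788 and 1295 to 3950 for the combination against panobinostat, and 384 to 2097 and 970 to 2887 for the difference from JQ1. With only the 8 libraries of the interaction, 995 genes were higher and 1192 lower for it, and the lower calls were 1520 for sanguinarine against control and 1648 for the combination against panobinostat. With only the 8 libraries of the second table, the difference from JQ1 called 322 higher and 954 lower. With library totals in place of TMM the lower calls were 1223 and 1461 in the single terms. These fits have fewer samples or another scaling, and the cause of each shift was not tested. DESeq2 called 4457 interactions and limma-voom 3528. Of the 3686 calls, 0 changed sign in any alternative where they were called. Of 100 named genes 97 were called, 80 in every alternative, and 0 reversed.

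Replicate numbers pair no libraries across the tables. Within the second table, the correlation of deviations between same-numbered libraries was 0.202 for panobinostat and the combination. For the other pairs of groups it ran from -0.048 to 0.055. Whether same-numbered libraries share more than a number was not tested. A replicate block there gave 4387 interaction calls, 2091 higher and 2296 lower.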

Other observations

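Among genes of lipid synthesis, 5 of 13 had a higher and 0 a lower interaction. The 5 became 2 with only the 8 libraries and without control library 1 or 2, sanguinarine library 1 or 2 or panobinostat library 2, and without combination library 2 there were also 2 lower. SREBF1, the master regulator of fatty acid genes, whose gene overlaps others, had an interaction of 1.14, and ACLY, which makes cytosolic acetyl-CoA, one of 0.74. FASN, fatty acid synthase, had one of 0.69 and lost its call without control library 1 or 2, sanguinarine library 1 or 2, panobinostat library 2 or combination library 1, with only the 8 libraries and with limma-voom. In cholesterol metabolism, the sterol synthesis enzyme MSMO1 had a lower interaction of -1.01.

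Of 22 heat shock and chaperone genes 6 were higher and 4 lower, with a median of 0.23. The lower ones included HSPB8 at -1.41, HSPB1 at -1.20 and CRYAB at -1.32. CRYAB, which overlaps HSPB2, lost its call in most fits that left out a library. The constitutive chaperone HSPA8 had a higher interaction of 0.39. Among hypoxia and glycolysis genes, hexokinase HK2 had an interaction of 1.28, while NDRG1 and the glucose transporter SLC2A3 had -1.39 and -1.06. The secreted matrix proteins FN1 and TGFBI had lower interactions of -1.01 and -0.67. These genes were named by their place in a list.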
